A study of Homo sapiens with 19 samples.

Results

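The sites described here are HIF-1α binding sites that also carried a HIF-2α peak once HIF-2α was overexpressed, but not in control cells with the empty vector. They were chosen by the peak calls themselves: a HIF-1α window had to share at least 1 base with a HIF-2α window of the overexpressing cells and none with a HIF-2α window of the control cells. Of 5147 HIF-1α sites, 966 met this rule, or 18.8% (95% Wilson interval 17.7 to 19.9%), and they are called gained sites below. Of the 1637 HIF-1α sites with a HIF-2α window in the overexpressing cells, they were 59.0%.

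All cells were 786-O, an established clear cell renal carcinoma line with defective VHL. Pools of them were infected with lentivirus that carried the empty vector pRRL (control cells), pRRL-HIF-1a (HIF-1α re-expressing cells, below HIF-1α cells) or pRRL-HIF-2a (HIF-2α overexpressing cells, below HIF-2α cells), so that every pool shared the VHL defect and endogenous HIF-2α. By the study's methods the cells came from ATCC and the vector co-expresses EGFP. The parent line lacks wild-type HIF-1α, and the study describes transcripts of its first exons that are cut short or fused. ChIP-seq used rabbit antisera to HIF-1α (PM14, HIF-1α cells alone), HIF-2α (PM9) and HIF-1β (NB100-110) with 1 library each per pool, 7 lists in all, and polyA+ RNA-seq had 3 libraries per pool.

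HIF is a heterodimer of an oxygen-regulated α subunit and the constitutive HIF-1β. The VHL protein directs hydroxylated α subunits to degradation, so renal carcinoma cells without it keep HIF in normal oxygen. The dimer recognises the core of the hypoxia response element (HRE), written RCGTG, which is ACGTG or GCGTG. AP-1, a dimer of FOS and JUN family proteins, recognises TGACTCA or TGAGTCA and is known for its activity at enhancers.

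Sequences at 9 gained sites show what the cores look like. They come from sites, taken by rule, nearest to genes named below that hold an HRE core within 150 bases of the window's midpoint, and were read from GRCh37 (hg19) on the strand that carries the core. The core nearest the midpoint is in capitals, and where an annotated UTR was met the stretch is shorter. The first is IGFBP6 at chr12:53491838-53491898 (plus strand), in an intron, whose gene passed the test between HIF-2α and control cells.
IGFBP6: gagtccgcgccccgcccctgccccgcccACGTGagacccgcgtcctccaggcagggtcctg

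Sites nearest to genes that differed between HIF-1α and control cells follow. They lay at chr5:43397750-43397810 (CCL28, minus), chr10:127730516-127730544 (ADAM12, plus), chr7:75544263-75544323 (POR, plus), chr20:60718513-60718573 (PSMA7, plus) and chr7:74489324-74489384 (WBSCR16, minus). The ADAM12 site was inside the gene, 25.03 kb downstream of a start site, and the midpoints of the others lay within 0.276 kb of one.
CCL28: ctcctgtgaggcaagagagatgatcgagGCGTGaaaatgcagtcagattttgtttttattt
ADAM12: ctgtttctgcagACGTGcctggtaggctg
POR: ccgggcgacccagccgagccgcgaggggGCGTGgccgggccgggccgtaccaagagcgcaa
PSMA7: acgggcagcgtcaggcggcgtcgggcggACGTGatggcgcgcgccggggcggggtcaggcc
WBSCR16: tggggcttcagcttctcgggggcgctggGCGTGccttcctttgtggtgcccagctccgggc

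Known HIF targets among the nearest genes were EGLN1, the oxygen-sensing prolyl hydroxylase PHD2, at chr1:231558030-231558058 (minus), the endothelial growth factor gene VEGFA at chr6:43737441-43737501 (plus) and MXI1, a MAX partner that opposes MYC, at chr10:111986470-111986530 (plus). The MXI1 site held 10 HRE cores within 150 bases of its midpoint, while the VEGFA site held 3 and the EGLN1 site 1.
EGLN1: gggccgtggtgtACGTGcagagcgcgcag
VEGFA: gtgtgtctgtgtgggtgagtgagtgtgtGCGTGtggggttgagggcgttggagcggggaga
MXI1: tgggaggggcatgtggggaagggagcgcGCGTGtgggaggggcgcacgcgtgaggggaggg

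Both factors were called close together at the gained sites. HIF-1α and HIF-2α windows, each 2500 bp wide, shared a median of 2206 bases, and their midpoints lay a median of 294 bases apart (quartiles 124 and 602.5). In 439 of 966 sites (45.4%) the midpoints were within 250 bases. HIF-1α sites with HIF-2α in both control and HIF-2α cells (671 sites) had a similar median distance of 320 bases. As these windows chose the sites, the values are a description. Just inside the rule, the smallest overlap was 57 bases, at a site in TRAM1, and 14 sites shared under 500 bases. Just outside it, the nearest HIF-1α site without a HIF-2α window missed one by 23 bases. On the control side, the closest gained site, upstream of LIF, was 0.066 kb from a control HIF-2α window, and the smallest overlap that took a site out was 49 bases. A control HIF-2α window lay within 5 kb of 48 gained sites (4.97%) and within 50 kb of 275 (28.5%), and the median distance was 187 kb.

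The gained sites were spread over the genome and none overlapped another. They made up 28.5% of the HIF-1α sites of chromosome 8, with 84 of 295, and 6.25% of those of chromosome X, with 2 of 32, while the 1 HIF-1α site of chromosome Y was not among them. On chromosome 7 the share was 26.6%. SEPTIN9, a septin cytoskeleton gene, had 3 of them and the lncRNA gene PVT1 had 4.

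HIF-1β, the shared partner, was called at most gained sites in the pool with no introduced α subunit. In control cells 791 of 966 gained sites (81.9%, 79.3 to 84.2%) shared a base with a HIF-1β window, although none had a control HIF-2α window. The share was 14.5 points lower than at the 743 HIF-1α sites with control HIF-2α (95% Newcombe interval 11.7 to 17.3), where it was 96.4%. It was 39.6 points higher (36.6 to 42.4) than at the 3438 HIF-1α sites without HIF-2α in control or HIF-2α cells, where it was 42.3%. At the 2832 new HIF-2α sites without HIF-1α it was 44.2%, or 37.7 points lower (34.6 to 40.6) than at gained sites. Intervals cover counting error only. Each list comes from 1 library, so that no difference between lists could be set against replicate error, and no p is given. The lists hold neither heights nor depths, and binding below the authors' threshold is not seen in them. HIF-2α binding in control cells below the call was not tested here, so gained and new refer to calls. At the sites of overexpressed HIF-2α as a whole, the study describes control HIF-2α signal below its threshold but above randomly chosen open chromatin. It reads most newly detected sites as weak HIF-2α sites in control cells.

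In the infected pools HIF-1β was called less often at these sites than in control cells. HIF-1α cells had it at 536 gained sites (55.5%, 52.3 to 58.6%) and HIF-2α cells at 610 (63.1%, 60.1 to 66.1%). The lists differ in size: 6572 HIF-1β windows in control cells, 5807 in HIF-1α cells and 3431 in HIF-2α cells. How far list size sets these shares was not tested. They are shares of calls and not of signal. By read density the study reports that HIF-1β signal increased in HIF-1α cells at sites of re-expressed HIF-1α. In HIF-2α cells the gained sites stood apart from HIF-1α sites without HIF-2α (22.4%), by 40.8 points (37.4 to 44.1), and from new HIF-2α sites without HIF-1α (15.8%), by 47.3 points (43.9 to 50.6). In HIF-1α cells they were 5.0 points below HIF-1α sites without HIF-2α (60.5%, interval of the difference 1.5 to 8.6) and 47.4 points above new HIF-2α sites without HIF-1α (8.05%). The first of these differences was not the same at each distance from a start site, as given with the distances.

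**Figure D1:**
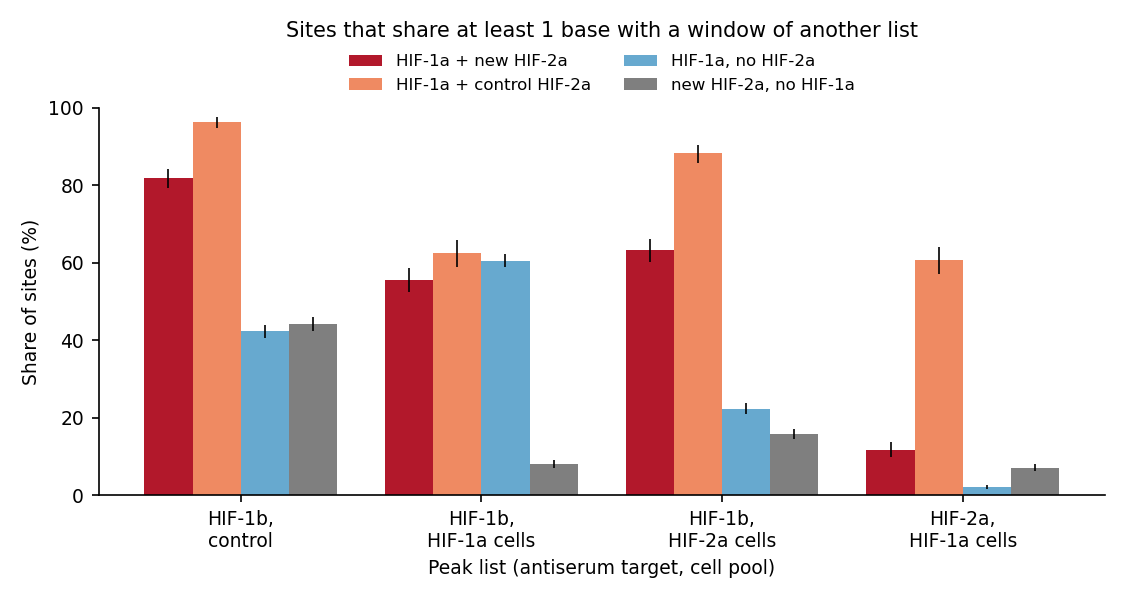
Share of sites (%) that share at least 1 base with a window of the HIF-1β list of each pool and of the HIF-2α list of HIF-1α cells. Dark red is the gained sites (n = 966), orange the HIF-1α sites with control HIF-2α (n = 743), blue the HIF-1α sites without HIF-2α (n = 3438) and grey the new HIF-2α sites without HIF-1α (n = 2832). Lines are 95% Wilson intervals. Gained sites lie between orange and blue for HIF-1β in control and HIF-2α cells, and at 11.7% for HIF-2α in HIF-1α cells.

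Put together, 327 gained sites (33.9%) had HIF-1β in all 3 pools, 240 (24.8%) in control and HIF-2α cells, 110 (11.4%) in control and HIF-1α cells and 114 (11.8%) in control cells alone. HIF-1β was called in infected but not in control cells at 68 sites in HIF-1α cells alone, at 12 in HIF-2α cells alone and at 31 in both. No HIF-1β window of any pool met 64 sites (6.63%). HIF-1β calls of control and HIF-2α cells went together. Of gained sites with control HIF-1β, 71.7% also had it in HIF-2α cells, against 24.6% of those without, a difference of 47.1 points (39.5 to 53.6). For HIF-1α cells the same split gave 55.2% and 56.6%, and the interval of the difference (-9.3 to 6.8 points) included 0.

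HIF-2α was not limited to the overexpressing cells at every gained site. Of the 966, 113 (11.7%, 9.82 to 13.9%) also had a HIF-2α window in HIF-1α cells, a pool with endogenous HIF-2α alone and a list of 1350 windows. This was 48.9 points below HIF-1α sites with control HIF-2α (60.6%), and 9.6 points above (7.7 to 11.9) HIF-1α sites without HIF-2α (2.07%). RNA levels of the HIF-2α gene in this pool and in control cells are given below. Those 113 sites more often had HIF-1β in HIF-2α cells (84.1% against 60.4% of the other gained sites) and less often in HIF-1α cells (38.9% against 57.7%, a difference of -18.7 points, -27.8 to -8.9). Among them were sites at KDM6B, a histone H3 lysine demethylase gene, KDM2B, also a histone demethylase gene, the cyclin G2 gene CCNG2, BHLHE41, a circadian repressor gene, and ENPP2, which encodes autotaxin.

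Gained sites lay mostly at promoters. Midpoints were within 1 kb of a start site in 621 (64.3%) and within 5 kb in 757 (78.4%, 75.7 to 80.8%), and the median distance was 0.348 kb. HIF-1α sites with control HIF-2α were less proximal, with 60.4% within 5 kb, a median of 2.48 kb and a difference of 17.9 points (13.5 to 22.3). HIF-1α sites without HIF-2α were more proximal, with 91.9%, a median of 0.159 kb and a difference of 13.5 points in the other direction (10.9 to 16.4). Only 36.3% of new HIF-2α sites without HIF-1α were within 5 kb, with a median of 8.94 kb. The annotation's many start sites matter here: with protein-coding start sites alone 65.9% of gained sites were within 5 kb. Immediately upstream and downstream were about equally used, with 293 midpoints in the 1 kb before a start and 328 in the 1 kb after. Midpoints were in introns in 42.8%, intergenic in 22.7%, in UTRs in 19.6%, in non-coding exons in 9.42% and in coding exons in 5.59%. The nearest start site belonged to a protein-coding gene in 69.2% and to a lncRNA gene in 23.8%.

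**Figure D2:**
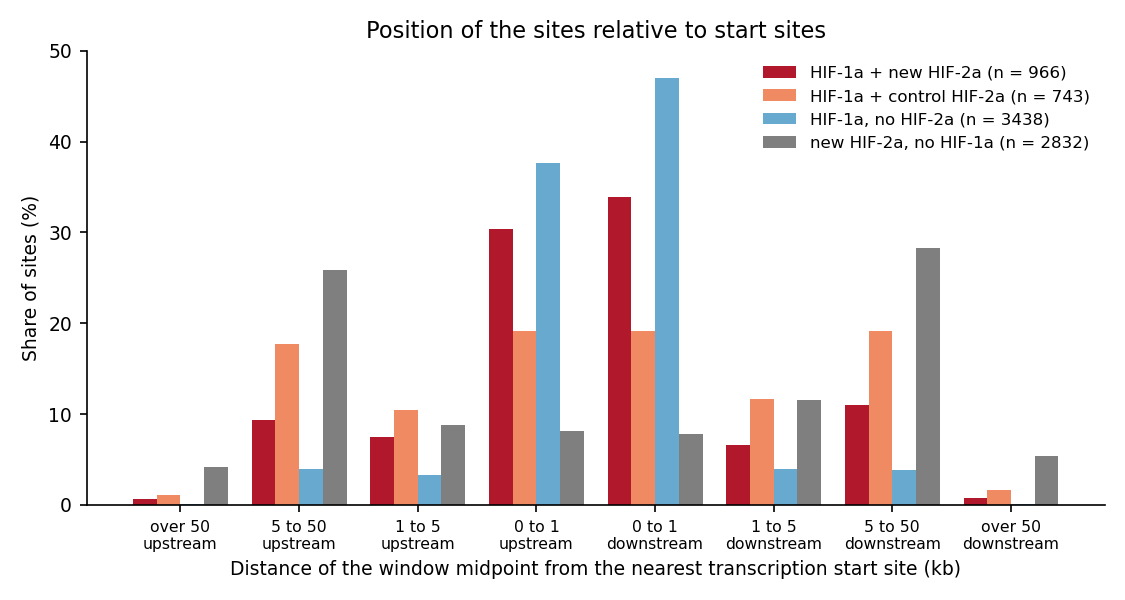
Share of sites (%) by the distance (kb) of the window's midpoint from the nearest annotated transcription start site, upstream on the left and downstream on the right, for gained sites (dark red, "HIF-1a + new HIF-2a") and 3 classes of comparison sites. Gained sites peak in the 1 kb to either side of the start, at 30.3% and 33.95%, below HIF-1α sites without HIF-2α (37.7% and 47.0%) and above new HIF-2α sites without HIF-1α (8.16% and 7.80%).

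Distance to a start site went with how often HIF-1β was called. In HIF-1α cells HIF-1β was at 71.8% of gained sites within 1 kb of a start, at 30.1% of those 1 to 5 kb away and at 23.4% beyond 5 kb. In control cells the order was the opposite, with 76.5%, 88.2% and 93.8%. Beyond 5 kb, gained sites differed in HIF-1β of HIF-1α cells from HIF-1α sites with control HIF-2α (53.4%) by -29.96 points (-37.6 to -21.5), whereas within 1 kb the difference was -3.9 points and its interval included 0 (-9.8 to 2.4). Against HIF-1α sites without HIF-2α, which were lower by 5.07 points within 1 kb (66.7%, 1.04 to 8.89), the order was the reverse of that over all distances. Their shares were 32.3% at 1 to 5 kb and 20.4% beyond 5 kb, and the intervals of those differences included 0 (-11.4 to 7.7 and -4.3 to 10.6 points).

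The HRE core was found within 150 bases of the midpoint at 597 gained sites (61.8%, 58.7 to 64.8%). Of all 20163 protein-coding promoters, 53.8% held it in 300 bases of the same length. The difference from HIF-1α sites with control HIF-2α (59.8%) was 2.0 points with an interval that included 0 (-2.6 to 6.7). HIF-1α sites without HIF-2α had it more often over all distances (68.3%), and new HIF-2α sites without HIF-1α less often (36.7%), by 25.1 points (21.5 to 28.6). By letters, ACGTG was at 29.9% of gained sites and GCGTG at 43.8%. ACGTG was at 37.01% of HIF-1α sites with control HIF-2α, 7.1 points more (2.6 to 11.6), and at 22.4% of promoters. The longer TACGTG was at 6.11% of gained sites and 11.98% of HIF-1α sites with control HIF-2α, a difference of 5.9 points (3.1 to 8.7), and at 3.29% of promoters. CACGTG, an E-box that contains ACGTG, was at 8.80% of gained sites and 7.78% of promoters. All motifs were searched on both strands. By distance, the core was less frequent at gained sites beyond 5 kb (48.8%) than at HIF-1α sites with control HIF-2α (61.2%, a difference of -12.4 points, -21.0 to -3.6) and at those without HIF-2α (60.9%, -12.1 points, -20.8 to -3.2). Within 1 kb the intervals of both differences included 0 (-2.5 to 10.9 and -6.1 to 2.0 points).

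Gained sites with an HRE core had HIF-1β in HIF-1α cells in 61.6%, against 45.5% of those without, a difference of 16.1 points (9.7 to 22.4). For HIF-1β in HIF-2α cells the values were 64.5% and 60.98% (difference -2.7 to 9.8 points), and in control cells 82.1% and 81.6%. Sites within 1 kb of a start held the core more often (67.5%) than those further away (51.6%), and the part of distance in the HIF-1β difference was not tested.

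The AP-1 motif was at 116 gained sites (12.01%, 10.1 to 14.2%), against 3.92% of promoters. It was 7.2 points more frequent (5.2 to 9.5) than at HIF-1α sites without HIF-2α (4.80%), 5.0 points less frequent (1.6 to 8.4) than at HIF-1α sites with control HIF-2α (17.0%), and 16.1 points less frequent (13.4 to 18.6) than at new HIF-2α sites without HIF-1α (28.1%). The last share was counted around HIF-2α midpoints and the others around HIF-1α midpoints. Around the HIF-2α midpoint, gained sites held AP-1 in 19.9%, nearer to the 28.1%. Of the 116, 68 also held an HRE core. Distance from the start and base composition moved with these shares. GC content in 300 bases had a median of 62.7% at gained sites, 57.0% and 67.3% at the HIF-1α sites with control HIF-2α and without HIF-2α, and 45.3% at new HIF-2α sites without HIF-1α. GGGCGG, the box bound by SP and KLF factors, was at 48.2%, 29.7%, 64.0% and 8.65% of these classes. Split by distance after the totals were seen, AP-1 was at 7.57% of gained sites within 1 kb, 22.1% at 1 to 5 kb and 18.7% beyond 5 kb. Within 1 kb it remained 5.0 points above HIF-1α sites without HIF-2α (2.61%, interval 3.0 to 7.4). Beyond 5 kb those sites had 19.4%, and the interval of the difference included 0 (-7.6 to 6.5).

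**Figure D3:**
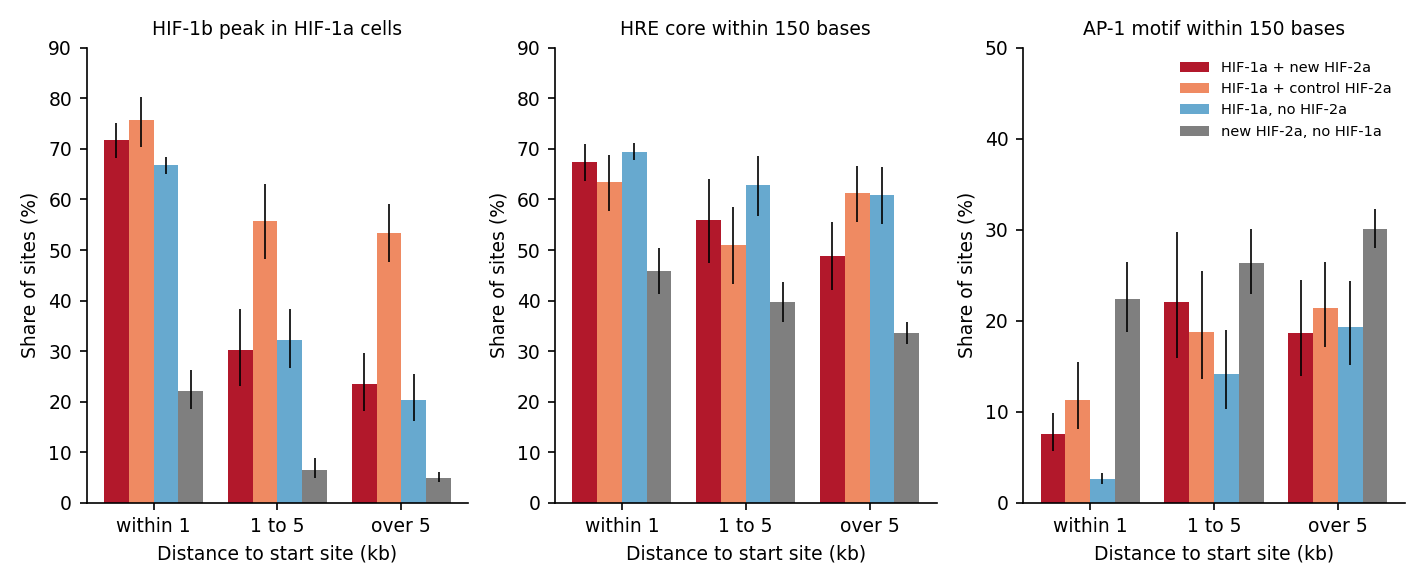
Share of sites (%) with HIF-1β in HIF-1α cells, with an HRE core and with an AP-1 motif, by distance to the nearest start site (kb) and class of sites, with 95% Wilson intervals. Gained sites are dark red. For them HIF-1β falls from 71.8% to 23.4% and the HRE core from 67.5% to 48.8% with distance, and AP-1 goes from 7.57% within 1 kb to 22.1% and 18.7%.

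AP-1 motifs were more often near the centre of the HIF-2α window than near that of the HIF-1α window. At the same 966 sites AP-1 lay within 150 bases of the HIF-1α midpoint in 12.01% and of the HIF-2α midpoint in 19.9% (17.5 to 22.5%). The motif was near the HIF-2α midpoint alone at 124 sites, near the HIF-1α midpoint alone at 48 and near both at 68. For the HRE core the same counts were 162, 158 and 439, with shares of 62.2% and 61.8%. Where the midpoints were over 250 bases apart (527 sites), AP-1 was at 9.49% by the HIF-1α midpoint and 21.1% by the HIF-2α midpoint. Within 250 bases (439 sites) the values were 15.0% and 18.5%. This comparison was chosen after the motif shares were seen.

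**Figure D4:**
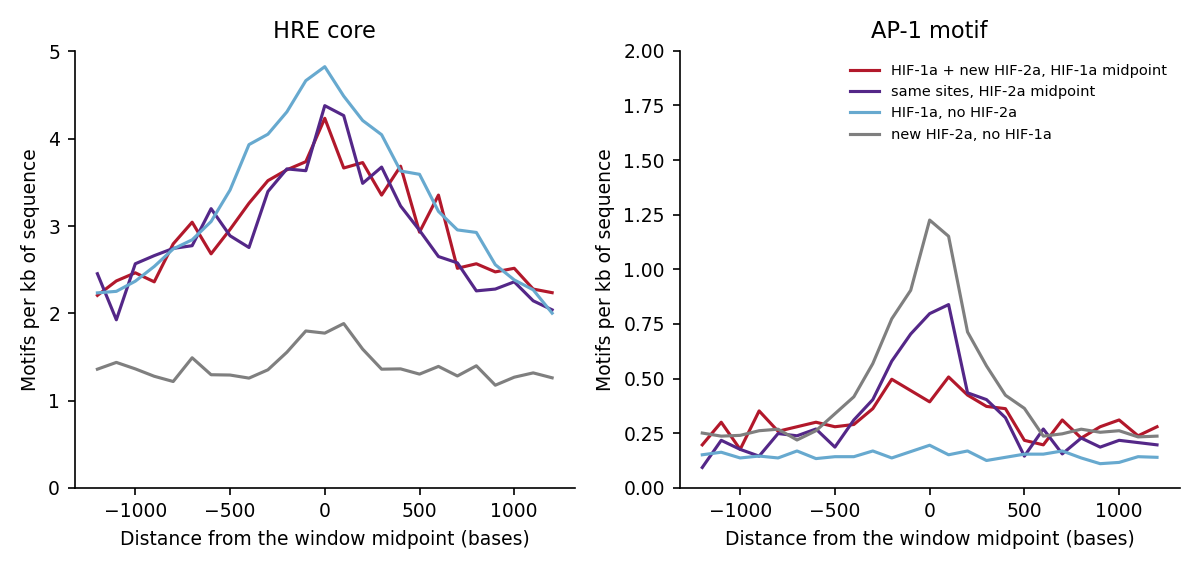
HRE cores (left) and AP-1 motifs (right) per kb of sequence in bins of 100 bases around the window's midpoint. Dark red is the gained sites around the HIF-1α midpoint, purple the same sites around the HIF-2α midpoint, blue HIF-1α sites without HIF-2α and grey new HIF-2α sites without HIF-1α. In the central bin HRE cores are at 4.23 (HIF-1α midpoint) and 4.38 per kb (HIF-2α midpoint), while AP-1 is at 0.393 and 0.797 per kb.

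AP-1 sequences at 2 gained sites near genes named here, chosen after their values were seen, show the spelling TGACTCA, with the motif in capitals. They are at chr1:43403064-43403124 (SLC2A1, the gene of glucose transporter GLUT1, where no HRE core was within 150 bases) and chr7:1576968-1577028 (MAFK, a small MAF gene), both on the plus strand.
SLC2A1: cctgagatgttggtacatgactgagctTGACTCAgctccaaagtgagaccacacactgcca
MAFK: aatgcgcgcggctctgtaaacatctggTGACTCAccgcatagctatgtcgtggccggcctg

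AP-1 and HIF-1β differed in their distribution among gained sites. Sites with AP-1 had HIF-1β in HIF-1α cells in 31.9%, against 58.7% of those without AP-1, a difference of -26.8 points (-35.3 to -17.3). In HIF-2α cells the values were 65.5% and 62.8%, with an interval of -6.9 to 11.4 points. In control cells the direction was the opposite, with 89.7% and 80.8%, a difference of 8.8 points (1.5 to 14.0). Sites with AP-1 were also less often within 5 kb of a start (66.4% against 80.0%).

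RNA was then examined for the genes nearest to gained sites. By nearest start site 922 genes were assigned to the 966 sites. The count table held 659 of them, and 625 passed edgeR's filter on low counts. These 625 were the nearest genes of 653 sites (67.6%). Library totals were 27852754 to 54287621 counts. As a check of the pools, HIF1A was at 30.4, 36.7 and 151.6 CPM (counts scaled to library size) in control libraries 1 to 3 and at 171.5, 1682 and 472.6 in those of HIF-1α cells. EPAS1, the HIF-2α gene, was at 455.9, 224.2 and 162.1 CPM in control and 945.9, 3244 and 879.8 in HIF-2α cells, so neither gene overlapped between its pools. With the replicate number as a block, edgeR's adjusted p was 0.0418 for HIF1A and 0.0690 for EPAS1, and without it 0.149 and 0.490. In HIF-1α cells EPAS1 was at 575.3, 627.1 and 397.1 CPM, above control in each numbered pair though the ranges overlapped. Its log2 fold change there was 0.95 ± 0.43 (edgeR with block, adjusted p = 0.154). ARNT, the HIF-1β gene, ranged from 33.1 to 69.9 CPM over all 9 libraries. Of 9 kidney tubule markers 9 passed the filter. PAX8 was at 175.5 CPM or more, while CDH16 ranged from 0.554 to 105.9 CPM. Of the leukocyte, endothelial, hepatocyte and muscle markers 0 passed, with at most 0.838 CPM in any library. In pools, more cells with a transcript and more transcript per cell cannot be told apart.

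In a model with no term but the cell pool, edgeR's quasi-likelihood test called 0 of the 625 nearest genes (Benjamini-Hochberg adjusted p under 0.05) in each of the 3 comparisons. Over all 14225 genes it called 0% between HIF-1α and control cells, 0% between HIF-2α and control cells and 0.0492% between HIF-1α and HIF-2α cells. At an unadjusted p under 0.05 it gave 76 nearest genes higher and 45 lower in HIF-1α than control cells, 35 and 12 in HIF-2α than control cells, and 54 and 30 in HIF-1α than HIF-2α cells. The same p gave 11.1% and 8.23%, 3.35% and 2.54%, and 9.04% and 4.6% of all genes. DESeq2 with the same term called 32 and 8, 3 and 2, and 22 and 12 nearest genes, beside 3.43% and 1.95%, 0.246% and 0.176%, and 3.27% and 0.97% of all genes. With the block DESeq2 called 83 and 53, 18 and 11, and 56 and 36 nearest genes, beside 11.6% and 9.13%, 1.88% and 1.5%, and 8.17% and 4.32% of all genes. Libraries with the same replicate number deviated together, and the calls below come from the edgeR fit with this number as a block. The labels do not say that libraries came from separate cultures, so the p-values measure only the spread between these libraries. Both comparisons with control use the same control libraries.

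Between HIF-1α and control cells the block fit called 49 of 625 nearest genes higher (7.84%) and 9 lower (1.44%). Over all genes 5.41% were called higher and 2.55% lower. Genes nearest to HIF-1α sites without HIF-2α had almost the same share higher (7.86%), and those nearest to HIF-1α sites with control HIF-2α had 8.76%. The median log2 fold change of the nearest genes was 0.06, beside 0.04 for all genes. In 91 of the 625 (14.6%) all 3 libraries of HIF-1α cells were above all 3 of control cells, as were 12.9% of all genes. The 49 became 20 without the libraries numbered 1, and 0 without those numbered 2 or 3, with a block of 2 numbers each.

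Among the largest rises in HIF-1α cells were CCL28, OLFML2A, COL27A1 and ADAM12. CCL28, a mucosal chemokine gene with its site 0.276 kb upstream, was at 3.75, 3.53 and 2.08 CPM in control and 5.61, 27.4 and 8.99 in HIF-1α cells. Each control library was below each HIF-1α library, and the log2 fold change was 1.87 ± 0.42 (SE, edgeR with block, adjusted p = 0.0399). OLFML2A, of an olfactomedin-domain protein, went from 29.8, 20.6 and 44.5 to 77.0, 99.4 and 216.6 CPM (1.95 ± 0.40). COL27A1, a fibrillar collagen gene, went from 16.8, 22.8 and 12.01 to 30.6, 82.3 and 92.5 CPM (1.84 ± 0.35). ADAM12, a disintegrin metalloprotease gene, went from 16.4, 26.0 and 13.3 to 41.8, 80.1 and 37.4 CPM (1.497 ± 0.226). In none of these 4 did the libraries overlap. OLFML2A lost the call without the libraries of any single number (edgeR with block, adjusted p of at least 0.0538).

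Other rises were in genes of unlike roles. ZC3HAV1L went from 5.69, 4.35 and 2.50 to 13.8, 22.4 and 10.6 CPM (1.88 ± 0.29), with HIF-1β in all 3 pools at its site. ZNF460, a zinc finger gene, went from 2.79, 2.16 and 1.07 to 9.36, 8.81 and 8.47 CPM (2.23 ± 0.41), with no HIF-1β window at its site in any pool. DENND2A, a regulator of Rab GTPases, rose by 2.45 ± 0.51 on the log2 scale, with 1 library at 33.6 CPM and the others at 4.73 and 5.14. ENPP2 rose by 2.73 ± 0.48 with the block, but its libraries overlapped: 15.3, 1.16 and 19.3 CPM in HIF-1α and 3.83, 0.256 and 1.35 in control cells. Their adjusted p-values in this fit were 0.0299, 0.0333, 0.0365 and 0.032. Without the libraries of any single number DENND2A and ENPP2 lost the call (edgeR with block, lowest adjusted p 0.0672 and 0.0523).

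Falls in HIF-1α cells were smaller. POR, the electron donor of cytochromes P450, was at 318.4, 178.0 and 169.0 CPM in control and 189.9, 84.7 and 81.9 in HIF-1α cells, lower in each numbered pair though the ranges overlapped (-0.94 ± 0.23, adjusted p = 0.0452). PSMA7, a 20S proteasome subunit gene, was at 272.5, 354.2 and 333.1 and then 203.8, 182.8 and 128.0 CPM (-0.93 ± 0.23). NDUFAF6, a complex I assembly factor gene, and WBSCR16 changed by -0.92 ± 0.23 and -0.84 ± 0.20. Sites of all 4 lay within 0.24 kb of a start site and held an HRE core. Without the libraries of any single number all 4 lost the call (edgeR with block, adjusted p of at least 0.0529).

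Between HIF-2α and control cells few genes passed in the block fit, namely 1 of 625 nearest genes higher and 2 lower, beside 0.112% and 0.155% of all genes. IGFBP6, a binding protein of insulin-like growth factors, was at 62.1, 26.6 and 47.7 in control, 48.1, 29.99 and 55.9 in HIF-1α and 14.9, 10.99 and 17.3 CPM in HIF-2α cells, and fell by 1.61 (-1.61 ± 0.20, adjusted p = 0.0191). Its HIF-2α libraries did not overlap with the others. FXYD2, a regulator of the sodium-potassium pump, differed more between replicate numbers than between pools, with 1.40, 12.01 and 61.4 CPM in control and 0.674, 2.79 and 18.2 in HIF-2α cells (-1.67 ± 0.26, adjusted p = 0.0469), and its direction turned (0.11) in the fit without the block once control library 3 was left out. Without the libraries of any single number FXYD2 and IGFBP6 lost the call (adjusted p of at least 0.0648).

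The direct comparison of HIF-1α with HIF-2α cells gave 32 nearest genes higher in HIF-1α cells (5.12%) and 16 lower (2.56%), beside 4.54% and 1.38% of all genes. With each replicate number left out in turn these became 10 to 13 and 2 to 6. The largest differences toward HIF-1α cells were ENPP2 (3.27 ± 0.51), EFNA3, an ephrin ligand gene (2.11 ± 0.51), CNIH3, a glutamate receptor auxiliary subunit gene (1.97 ± 0.26), PADI1, a peptidylarginine deiminase gene (1.79 ± 0.28), and FXYD2 (1.69 ± 0.27). LTBP3, a latent TGF-β binding protein gene (1.69 ± 0.36), IGFBP6 (1.61 ± 0.20) and TRIB1, a pseudokinase gene (1.58 ± 0.29), followed. HIF-1α and HIF-2α libraries overlapped for ENPP2, FXYD2 and LTBP3, and did not for the others. PADI1 was at 6.40, 6.50 and 6.98 CPM in HIF-1α cells, 2.50, 1.57 and 1.75 in HIF-2α cells and 3.23, 3.36 and 2.79 in control cells, so its 3 pools did not overlap. Adjusted p-values of these 8 in the edgeR block fit were 0.00404 to 0.0441. With each replicate number left out of that fit in turn, IGFBP6 alone stayed under 0.05 each time (adjusted p of at most 0.0281). The highest adjusted p was 0.226 for EFNA3 and 0.148 for LTBP3.

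Toward HIF-2α cells NDRG1, a hypoxia and stress response gene, was at 3564, 1838 and 2218 CPM in control, 2505, 2535 and 2336 in HIF-1α and 3938, 11470 and 7544 in HIF-2α cells (-1.61 ± 0.40, adjusted p = 0.0474). ATP1B1, the pump's β subunit gene, overlapped between pools, at 132.4, 225.6 and 582.4 CPM in HIF-1α and 291.3, 946.8 and 1523 in HIF-2α cells, while each numbered pair had the same direction (-1.52 ± 0.22). NDST1, which modifies heparan sulfate, was at 242.1, 357.4 and 340.1 and at 432.6, 1328 and 704.1 CPM (-1.27 ± 0.23), and the ranges did not overlap.

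**Figure D5:**
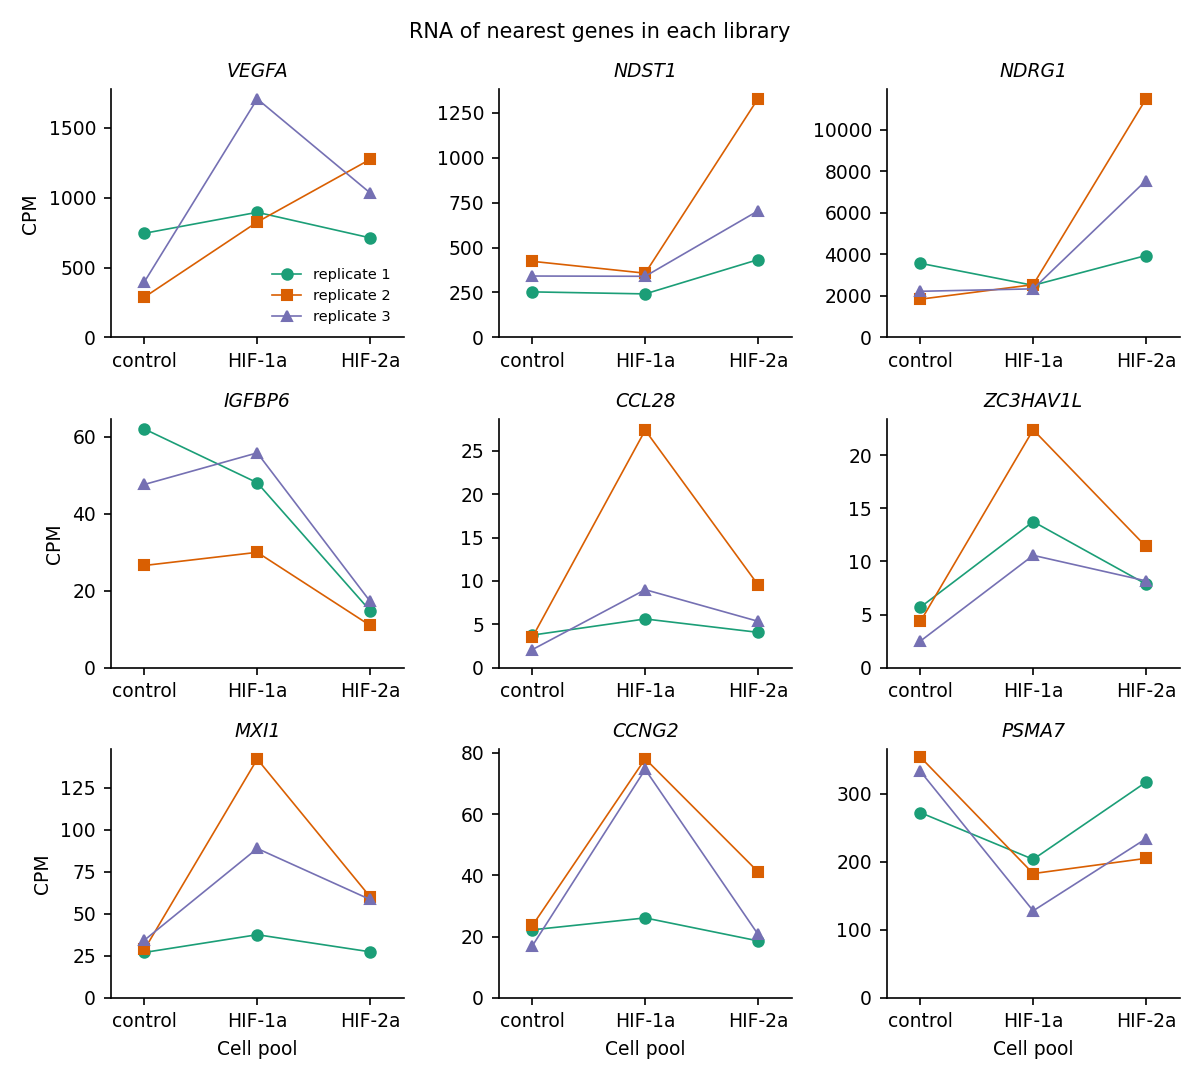
Library-size scaled counts (CPM) of 9 nearest genes of gained sites in control, HIF-1α and HIF-2α cells, each point 1 library and each line 1 replicate number. IGFBP6 is lowest in the 3 HIF-2α libraries (10.99 to 17.3 CPM), while CCL28, ZC3HAV1L, MXI1 and CCNG2 are higher in each HIF-1α library than in its control of the same number. These genes were picked after their values were seen.

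Genes of the HIF pathway and of related processes were taken as 13 lists with 151 genes. The lists were chosen with earlier results of these data known, so their counts are a description. Of these, 22 were the nearest gene of a gained site, and all 22 were tested. At 21 of them the site's midpoint lay within 1 kb of a start, at 17 the site held an HRE core and at 17 HIF-1β was called in all 3 pools. Over the 142 tested genes of the lists, the block fit called 20 higher and 1 lower in HIF-1α than control cells (median log2 fold change 0.47), beside 5.41% and 2.55% of all genes. It called 2 higher and 0 lower in HIF-2α than control cells (median 0.22), beside 0.112% and 0.155%. Without the block it called 0 in either comparison.

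Of the 22 listed genes with a gained site, 5 rose in HIF-1α cells in the block fit, beside 5.41% of all genes. BNIP3L, a mitophagy receptor gene, was at 89.5, 86.5 and 113.0 CPM in control and 137.7, 351.7 and 180.1 in HIF-1α cells (1.12 ± 0.27, edgeR with block, adjusted p = 0.0439). MXI1 was at 27.04, 28.9 and 34.4 and then 37.6, 142.2 and 88.9 CPM (1.37 ± 0.30, 0.0389). CCNG2, linked to cell cycle arrest, was at 22.2, 23.6 and 17.0 and then 26.1, 78.1 and 74.6 CPM (1.38 ± 0.34, 0.0452). KDM6B changed by 1.22 ± 0.27 and the AP-1 subunit gene FOSL2 by 0.91 ± 0.23. Control and HIF-1α libraries overlapped in none of these 5. In their lists, 2 of 9 tested genes of mitophagy and the mitochondrial switch were called higher, 3 of 12 of growth and cell cycle, 2 of 10 chromatin demethylases and 1 of 13 AP-1 subunits, with 0 lower in each.

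Metabolic and oxygen-sensing genes with a gained site did not pass in HIF-1α against control cells. VEGFA was at 745.3, 288.5 and 398.9 CPM in control, 895.4, 825.8 and 1707 in HIF-1α and 712.8, 1274 and 1035 in HIF-2α cells, with log2 fold changes of 1.24 ± 0.41 and 1.13 ± 0.42 against control (edgeR adjusted p = 0.0816 and 0.287). EGLN1 had 0.64 ± 0.29 and 0.25 ± 0.29, and ENO2, a glycolytic enolase gene, 1.22 ± 0.44 and 0.87 ± 0.42. SLC2A1 had 0.16 ± 0.25 in HIF-1α and 1.08 ± 0.25 in HIF-2α cells, where its 1591 to 2959 CPM lay above the 943.8 to 1264 CPM of control (adjusted p = 0.14). CA12, a cell surface carbonic anhydrase gene, had 0.09 ± 0.36 and 1.06 ± 0.37. MET, the receptor of hepatocyte growth factor, had 0.14 ± 0.19 and 0.26 ± 0.19, and MYC had -0.05 ± 0.23 and -0.36 ± 0.23. In the list of glycolytic enzymes 0 of 16 passed in either direction, with 1 nearest to a gained site. In that of glucose uptake 2 of 12 rose, beside 5.41% of all genes, with SLC2A1 alone nearest to a gained site.

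The other lists had few or no gained sites. Matrix hydroxylases and lysyl oxidases (3 of 11 tested genes higher in HIF-1α cells) and iron and heme genes (0 of 10) had none. The stress response list had 3 of 12 higher in HIF-1α cells and 3 genes with a gained site, namely NDRG1, BHLHE41 and SERTAD1, none of which was called in that comparison. The list of pH and ion regulation had 2 of 7 higher, oxygen sensing 1 of 11, and the nucleosome and lncRNA list 1 of 9 higher and 1 lower. Over all genes 5.41% were called higher and 2.55% lower.

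Genes called higher in HIF-1α cells were then split by the properties of their gained sites. Of tested genes nearest to a site with an HRE core 28 of 399 (7.02%) were called, and of those with a site without one 21 of 237 (8.86%). With HIF-1β in HIF-1α cells it was 31 of 404 (7.67%), and without it 18 of 235 (7.66%). With AP-1 it was 5 of 67 (7.46%), and without it 45 of 566 (7.95%). The shares lay further apart in the other splits made. With HIF-1β in HIF-2α cells 35 of 395 (8.86%) were called, and without it 14 of 241 (5.81%). For sites within 1 kb of a start it was 33 of 471 (7.01%), and for those further away 17 of 166 (10.2%). Of all genes 5.41% were called higher. These counts are given without a test, and a gene with several sites can stand on both sides.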

How the data were processed

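The authors trimmed reads with Trim Galore, aligned ChIP-seq reads to GRCh37 (hg19) with BWA, removed duplicates with Picard and called peaks with T-PIC and MACS. The deposited lists hold positions of 2500 bp windows without scores. RNA-seq reads were aligned with TopHat, and the deposited values are raw counts per gene symbol made by the authors with HTSeq, with 27852754 to 54287621 per library. Input DNA libraries were not analysed here.

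Windows were compared by shared bases (at least 1). Distances used all start sites of GENCODE 44 on GRCh37, and motifs were searched within 150 bases of window midpoints. Midpoints were those of HIF-2α windows for new HIF-2α sites and of HIF-1α windows for the other classes. Shares have 95% Wilson and differences 95% Newcombe intervals. Python 3.11.15, pandas 2.3.3 and pysam 0.24.0 were used. Of 23441 symbols in the count table, 20654 matched the annotation directly and 1409 by a RefSeq synonym. Members and gene lists were chosen with earlier results of these data known.

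Counts were fitted with edgeR 4.0.16 (TMM, quasi-likelihood test, Benjamini-Hochberg adjustment over all 14225 genes kept by its filter) in a model with no term but the cell pool, after being tested on simulated data. CPM values are TMM-scaled. Libraries with the same number deviated together (r = 0.348 to 0.652 in 9 pairs, and -0.478 to 0.0281 in the 18 others), so values with the replicate number as a block are given. The pairing comes from the numbers in the labels. Genes were named as the 8 largest rises and 4 largest falls per comparison past an adjusted p of 0.05, a mean of at least 5 CPM in 1 of the groups and the same direction in all 3 numbered pairs, plus listed genes nearest to a site, HIF1A, EPAS1 and ARNT. The block fit gave them, since the fit without it called none. Alternatives were DESeq2 1.42.0, no filter, other windows and start sites, and leaving out libraries. Results that need some items withheld from the text are not reported here.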

Additional observations from a re-analysis of the deposited data

How the results depend on the processing

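With at least 50% of the window shared, HIF-1β was at 78.1% (control), 52.1% (HIF-1α cells) and 59.9% (HIF-2α cells) of the gained sites. Sites within 5 kb of a start were 65.9% with protein-coding starts and 66.5% with 1 start per gene, and 64.3% were within 1 kb. HRE cores were at 29.6% within 50 bases and 91.9% within 500, and AP-1 at 3.93%, 28.7% and, around the HIF-2α midpoint (chosen after seeing the data), 19.9%.

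Counts of nearest genes, all 0 in the edgeR fit with the cell pool alone, are given as higher and lower in HIF-1α than control, HIF-2α than control and HIF-1α than HIF-2α cells. With the replicate block, or pairing by number, they were 49 and 9, 1 and 2, and 32 and 16. DESeq2 gave 32 and 8, 3 and 2, and 22 and 12, and with the block 83 and 53, 18 and 11, and 56 and 36. Over all genes DESeq2 called 3.43% and 1.95%, 0.246% and 0.176%, and 3.27% and 0.97%. With the block it called 11.6% and 9.13%, 1.88% and 1.5%, and 8.17% and 4.32%. In the block fit, the 872 tested genes within 10 kb gave 52 and 18, 1 and 3, and 39 and 16. Over all 14225 genes that fit called 5.41% and 2.55%, 0.112% and 0.155%, and 4.54% and 1.38%. The nearest protein-coding start gave 61 and 14, 3 and 4, and 47 and 22, and sites by 50% overlap 47 and 9, 1 and 2, and 29 and 15. Without the filter 1 gene was higher in HIF-1α than HIF-2α cells. Leaving out libraries, with or without the block, gave 0 to 20 and 0 to 2, 0 to 3 and 0, and 0 to 13 and 0 to 6. FXYD2 in HIF-2α against control cells ranged from -3.85 without HIF-2α replicate 3 to 0.11, the opposite direction, without control replicate 3, both without the block. The other 98 values moved less than their limits. Of 27 named gene comparisons, 18 were called in at least 1 block fit without a replicate number. The causes were not tested. ChIP-seq had 1 library per list and no heights, which limits every share to the authors' calls.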
